A study of Mus musculus with 30 samples.

Results

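The interleukin-1 and IL-33 system was followed here through 8 genes, taken by name from the count tables: the cytokine genes *Il1a*, *Il1b* and *Il33*, the antagonist gene *Il1rn*, and the receptor genes *Il1r1*, *Il1rap*, *Il1rl1* and *Il1r2*. They are 8 of 28586 genes listed in at least 1 table. All 8 are listed for total RNA of the muscularis externa (*ME*), the muscle wall of the gut with its nerve plexus. In the *RiboTag* tables *Il1a* is listed at 24 h alone and *Il1r2* at 3 h and 24 h, while the other 6 genes are listed at all 3 times.

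The study asked how enteric glia react to intestinal manipulation (IM), a surgical model of postoperative ileus in which the small bowel is rolled with moist swabs. *RiboTag* mRNA, which was bound to HA-tagged ribosomes and precipitated with an antibody, came from 3 naïve libraries and 4 libraries each at 3 h (IM3h), 24 h (IM24h) and 72 h (IM72h) after IM. Total *ME* RNA came from 3 naïve, 3 IM3h, 4 IM24h and 4 IM72h libraries. The mice were males of 10 to 12 weeks, and operated mice also had tramadol and isoflurane, so that drugs, incision and manipulation cannot be told apart against naïve mice. In all groups the tagged ribosomal protein came from the allele B6N.129 Rpl22tm1.1Psam/J. Its Cre driver was B6 Tg(Sox10-icre/ERT2)388Wdr/J, a tamoxifen-induced Cre under the glial *Sox10* promoter, in all *RiboTag* groups and in total *ME* RNA at IM24h and IM72h. For total *ME* RNA of naïve and IM3h mice the labels give the driver B6.Cg-Tg73.12Mvs/J(Gfap-cre) instead. In total *ME* RNA only IM3h against naïve and IM72h against IM24h are therefore comparisons within 1 labelled line, and in all others line and time cannot be told apart.

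IL-1α and IL-1β bind the receptor IL1R1, which signals once the accessory protein IL1RAP has joined it, and IL-33 uses the same accessory protein with its own receptor ST2, the product of *Il1rl1*. Signalling runs through the adaptor MYD88 and IRAK kinases to NF-κB. The antagonist IL1RN occupies IL1R1 without recruiting IL1RAP, and IL1R2 is a decoy that binds the cytokine but lacks the signalling domain. IL-1β is largely a product of activated myeloid cells, IL-33 is kept in the nuclei of stromal and barrier cells and acts when they are damaged, and enteric glia are known to respond to IL-1.

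Levels are given as CPM, counts scaled to a common library size, with TMM factors computed separately for each fraction, so that levels cannot be set side by side between fractions or between genes. Library totals were 3010306 to 7899493 counts in *RiboTag* and 6603170 to 12866062 in total *ME* RNA. A transcript that overlaps ribosomal RNA, *AY036118*, took 58.0% to 80.1% of the counts at IM72h in *RiboTag*, against 2.02% to 13.98% in naïve and IM3h libraries and 22.2% to 59.2% at IM24h. Without it 663808 to 1619377 counts were left at IM72h. Its share in total *ME* RNA was 16.1% to 33.5% in naïve and IM3h libraries and 1.33% to 6.50% at the later times. The sum of 7 glial marker genes in *RiboTag* was 1613 to 1962 CPM in naïve, 1359 to 2853 at IM3h, 784 to 924 at IM24h and 143 to 1435 at IM72h, and in total *ME* RNA it was 126 to 170 CPM up to IM24h and 180 to 341 at IM72h. All 7 markers were detected in every *RiboTag* group. IM72h *RiboTag* library 2 stood apart, with a glial sum of 143 CPM against 945 to 1435 in the other 3 libraries of its group and with the highest smooth muscle (8032 CPM) and fibroblast (1110 CPM) sums of that group.

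*Il1rap*, the gene of the accessory protein shared by the IL-1 and IL-33 receptors, was the 1 member called of 5 tested in glial *RiboTag* mRNA at IM3h. It lies on chr16:26581704-26730117 (mm10, plus strand). Its level was 5.72, 5.71 and 9.38 CPM in the naïve libraries and 51.0, 75.0, 37.9 and 21.03 CPM at IM3h, from 224 to 774 counts a library. Every IM3h library lay above every naïve one. The group mean was 6.94 ± 2.12 CPM (SD, n = 3) in naïve mice, and at IM3h it was 46.2 ± 22.7 CPM (SD, n = 4), a 6.88-fold change (log2 2.78, SE 0.45, edgeR quasi-likelihood test with Benjamini-Hochberg adjusted p = 0.00208). Of all genes tested in this comparison, 13.3% were called in either direction and 8.86% as higher, and 14.5% had IM3h libraries all above the naïve ones. The call was lost when libraries were scaled by *Actb*, *Hsp90ab1* and *Rplp1* (log2 2.499, adjusted p = 0.0632 by edgeR) and when the spread was shared by all *RiboTag* groups, a fit that called 0.190% of genes.

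At IM24h *Il1rap* was back near the naïve range, with 8.63, 6.83, 14.3 and 6.66 CPM. The lowest IM3h library still lay above the highest IM24h library. Between these times the log2 difference was -2.24 (SE 0.56), with an edgeR adjusted p of 0.0619, where 1.90% of genes passed. The decrease passed with DESeq2 (adjusted p = 0.00276), without a filter on low counts (adjusted p = 0.0435 by edgeR) and without IM24h library 3 (adjusted p = 0.0289 by edgeR). It stayed short of the threshold in 4 of 6 alternative settings, with an edgeR adjusted p of up to 0.610. Without IM3h library 2 that value was 0.278. At IM72h all 31 counts came from 1 of 4 libraries, which gave 0, 0, 28.6 and 0 CPM.

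**Figure D1:**
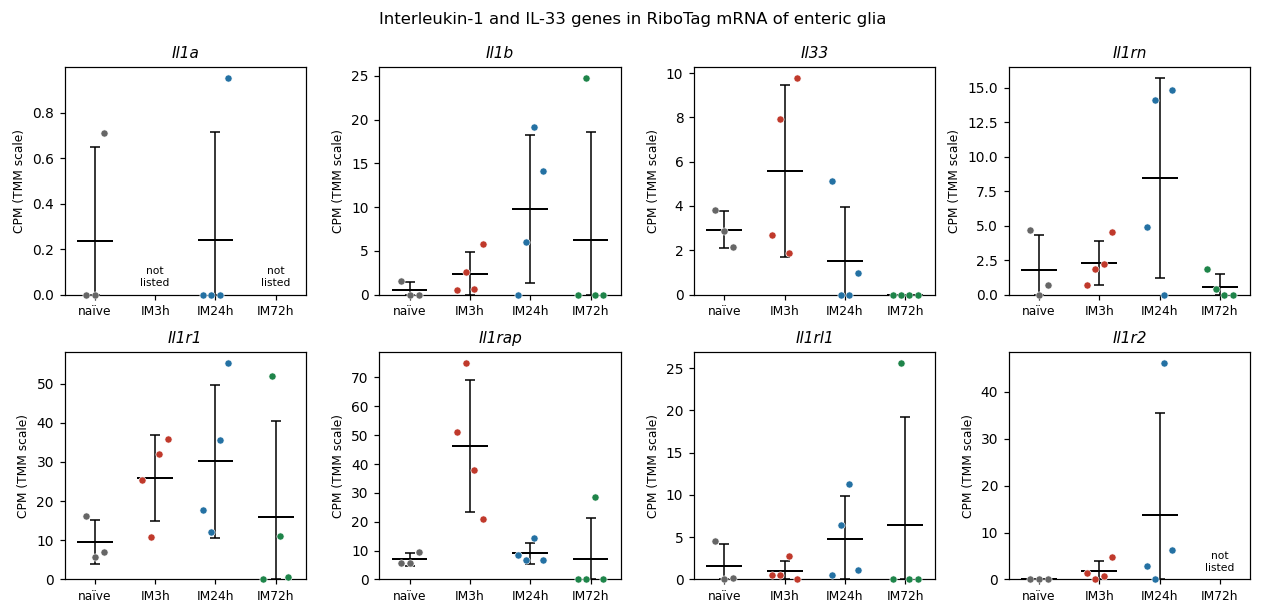
Levels of the 8 genes in *RiboTag* mRNA, 1 panel a gene, with CPM on a linear axis from 0 and 1 point a library for naïve (n = 3), IM3h, IM24h and IM72h (n = 4 each), lines and bars marking the group mean ± SD, cut at 0. *Il1rap* at IM3h, from 21.03 to 75.0 CPM, stands above all naïve libraries, and most other genes have libraries at 0 CPM beside libraries well above it.

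*Il1rap* has several annotated ends, of which the last exons decide whether the protein keeps its signalling domain. The libraries were primed at 3′ ends, so the ends are what the counts tell apart. The 30 bases that open the last exon of Il1rap-201, the 570-codon membrane form, and of Il1rap-202, the 685-codon form, are shown with the first bases that Il1rap-206, the 360-codon soluble form, reads past the shared exon. They were read from the mm10 genome on the plus strand at chr16:26714701-26714730, chr16:26722356-26722385 and chr16:26701237-26701265.
Il1rap-201: ttgtcacagatgagaccctgagcttcattc
Il1rap-202: ataccgtggaagcagtttttgatttcattc
Il1rap-206: gtaatggatgcaccgagccgatgactctg
In *RiboTag* mRNA Il1rap-201 took 96.0% of the *Il1rap* counts of naïve mice and 99.7% of those at IM3h, the time of the rise. At IM24h its share was 78.6%, from 61.3% to 100% with 1 library left out, and the other 33 counts were assigned to Il1rap-204, a transcript annotated for nonsense-mediated decay. The 31 counts of IM72h were all assigned to Il1rap-202. In total *ME* RNA Il1rap-201 took 93.0%, 95.9%, 89.7% and 96.3% of the counts in naïve, IM3h, IM24h and IM72h groups, and the soluble form Il1rap-206 had at most 21.5 estimated counts in a group. These shares are descriptions without a test.

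*Il1r1*, the signalling receptor, was the other receptor gene well covered in *RiboTag*. Its level was 16.1, 5.71 and 6.89 CPM in naïve mice, 25.5, 10.8, 31.9 and 35.8 at IM3h and 17.8, 12.1, 35.6 and 55.2 at IM24h. Both times overlapped the naïve range through single libraries, naïve library 1 and the lowest IM3h or IM24h library. The log2 difference from naïve was 1.48 (SE 0.50) at IM3h, with an edgeR adjusted p of 0.0733, and 1.70 (SE 0.78) at IM24h, with an adjusted p of 0.373. The IM3h difference passed with DESeq2 (adjusted p = 0.0356), without a low-count filter (adjusted p = 0.0436), without naïve library 1 (log2 2.10, edgeR adjusted p = 0.0388) and without IM3h library 2 (log2 1.74, edgeR adjusted p = 0.0419). In 4 of 6 alternative settings it stayed short of the threshold, and without naïve library 3 its edgeR adjusted p was 0.222. At IM72h it was at 0, 52.1, 11.1 and 0.603 CPM. The highest is library 2, the one with the low glial sum, and the log2 difference from naïve was 0.74 with it and -1.36 without it (edgeR adjusted p of 0.926 and 0.669).

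*Il1r2*, the decoy receptor, had no count in the 3 naïve *RiboTag* libraries. It was at 1.33, 0.0968, 0.706 and 4.79 CPM at IM3h, from 17, 1, 6 and 51 counts, and at 2.88, 0, 46.1 and 6.28 CPM at IM24h. All 4 IM3h libraries and 3 of 4 IM24h libraries had counts. Against a floor of 3 counts over the naïve group, the mean was at least 14.5-fold higher at IM3h and at least 115-fold higher at IM24h, or 5.95-fold and 25.5-fold without the library with the highest level. The gene did not pass the filter at IM3h, and at IM24h its edgeR adjusted p was 0.141, with 0.000592 by DESeq2 and 0.0631 by edgeR without the filter, which it had passed through its IM24h libraries alone. Of these counts 24.6% at IM3h and 66.0% at IM24h were assigned to a 75-codon transcript annotated for nonsense-mediated decay, whose annotated 3′ end lies close to that of the 410-codon transcript, so that 3′ end libraries tell the pair apart poorly, including all 106 counts of IM24h library 3, which gave the 46.1 CPM. *Il1r2* is in the acute enteric gliosis list that the study chose on these *RiboTag* libraries, so its direction at IM3h is not independent evidence.

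The ligand genes were near the limit of detection in *RiboTag*. *Il1b* was at 1.53, 0 and 0 CPM in naïve mice, 0.471, 2.61, 0.589 and 5.82 at IM3h, 0, 6.03, 19.1 and 14.1 at IM24h, and then 0, 24.7, 0 and 0 at IM72h. Its groups overlapped at every time, and its log2 differences from naïve, 2.24 (SE 1.78) at IM3h and 4.25 (SE 2.19) at IM24h, had edgeR adjusted p of 0.479 and 0.448. At IM72h all counts came from library 2, the one with the low glial sum, and 55 of the 57 were assigned to Il1b-203, annotated as a retained intron. *Il1a* had 6 counts in 1 naïve library and 5 in 1 IM24h library, with no count in the other 5 libraries of these groups.

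*Il33*, the alarmin gene, was low but present in every naïve and IM3h library of *RiboTag*, at 3.81, 2.85 and 2.14 CPM and at 2.67, 7.94, 1.88 and 9.76 CPM. It was at 5.13, 0, 0 and 0.952 CPM at IM24h and had no count in the 4 libraries of IM72h. Against the floor of 3 counts over that group *Il33* was at least 7.03-fold lower at IM72h than in naïve mice. It passed the low-count filter through its naïve libraries alone, and its edgeR adjusted p of 0.00818 is given as a description. Of all genes tested there, 16.1% were called, 15.1% as lower, 28.4% had all IM72h libraries below the naïve ones, and 9.62% were at 0 in all 4 IM72h libraries. The call was lost with DESeq2 (adjusted p = 0.144), without the filter on low counts (0.152 by edgeR) and with a spread shared by all *RiboTag* groups (0.0878 by edgeR). With *AY036118* left out *Il33* was not tested. At IM3h its log2 difference was 0.97 (SE 0.80, edgeR adjusted p = 0.503).

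The antagonist gene *Il1rn* and the IL-33 receptor gene *Il1rl1* moved between 0 and higher levels within groups. *Il1rn* was at 4.70, 0 and 0.713 CPM in naïve mice, 0.706, 1.84, 2.24 and 4.51 at IM3h, 4.88, 14.1, 0 and 14.8 at IM24h, and then 1.87, 0.434, 0 and 0 at IM72h. *Il1rl1* was at 4.58, 0 and 0.119 CPM in naïve mice, 0.471, 0.581, 2.82 and 0.0939 at IM3h, 0.500, 6.43, 11.3 and 1.14 at IM24h, and then 0, 25.6, 0 and 0 at IM72h, where library 2 again held all counts. The groups of both genes overlapped at every time, and the edgeR adjusted p of *Il1rn* was 0.890 at IM3h and 0.691 at IM24h.

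At IM24h 0 of 7 members tested were called in *RiboTag* by edgeR, where 0.497% of all genes were. At an unadjusted p under 0.05 it was 2 members, and DESeq2 called 1. Libraries differed widely there, with a median dispersion (the squared variation between libraries beyond counting error) of 1.01, against 0.271 at IM3h and 0.0922 in total *ME* RNA at IM24h. Between IM24h and IM72h 0 of 3 members and 0% of all genes passed in edgeR, while 0 of 3 members and 590 genes had an unadjusted p under 0.05, and DESeq2 called 0 of 3.

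In total *ME* RNA the system changed in nearly all of its members. At IM3h 5 of 6 members tested rose, at IM24h 6 of 6, and at IM72h 5 of 7, and none fell, neither at an edgeR adjusted p nor at an unadjusted p under 0.05. The share of all genes tested that were called was 32.7%, 29.0% and 57.5% at these times, and 19.3%, 15.6% and 29.3% were called as higher. The members called are also those whose libraries all lay above the naïve ones, as did those of 22.7%, 20.6% and 33.7% of all genes. Of the members called, 3 of 5, 4 of 6 and 4 of 5 had passed the low-count filter through the later group alone, which favours a difference, so that these counts are a description. They were *Il1b*, *Il1rn* and *Il1r2* at all 3 times, *Il33* at IM24h and *Il1rl1* at IM72h. Without the filter all of them were called too, with edgeR adjusted p of at most 0.000108, 0.00120 and 0.00368 at the 3 times. In this bulk tissue, more cells of a type and more RNA per cell cannot be told apart.

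**Figure D2:**
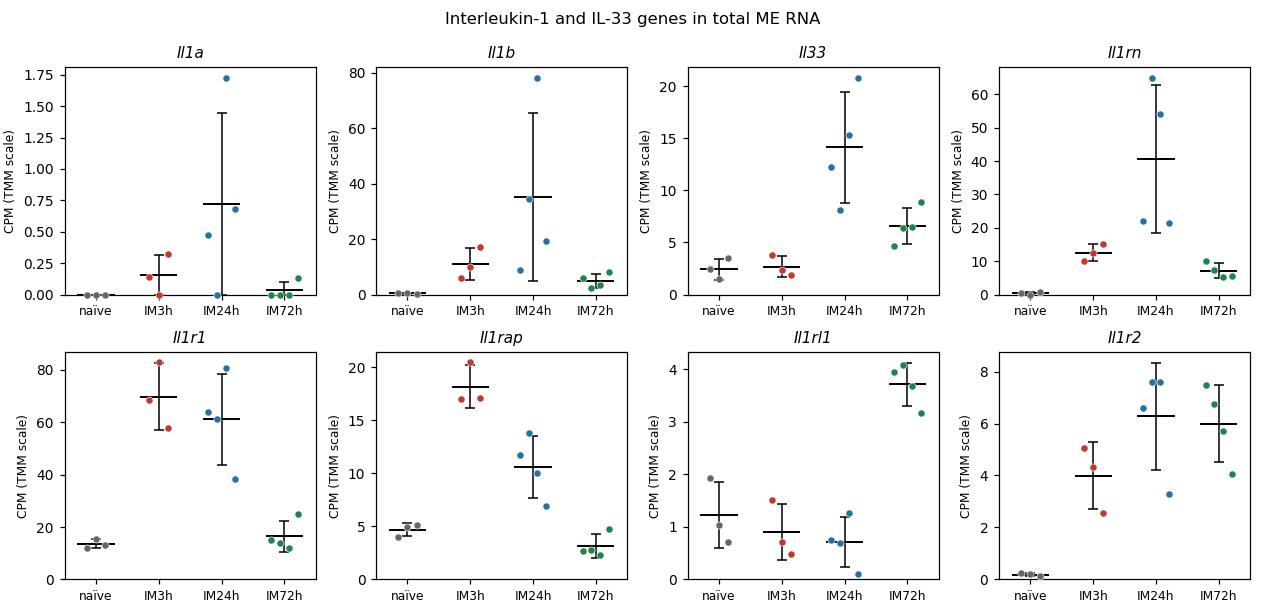
Levels of the 8 genes in total *ME* RNA, 1 panel a gene, with CPM on a linear axis from 0 and 1 point a library for naïve and IM3h (n = 3 each) and IM24h and IM72h (n = 4 each), lines and bars marking the group mean ± SD, cut at 0. *Il1b* and *Il1rn* were highest at IM24h, *Il1r1* and *Il1rap* were raised at IM3h and IM24h, with IM72h libraries that overlap the naïve ones, and *Il1r2* stayed raised at IM72h at 4.04 to 7.48 CPM.

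*Il1b*, on chr2:129364570-129371139 (minus strand), rose at all 3 times in total *ME* RNA. It was at 0.481, 0.623 and 0.360 CPM in naïve mice, from 3 or 4 counts a library, under the filter, at 6.03, 9.96 and 17.1 at IM3h, at 8.94, 34.6, 78.0 and 19.5 at IM24h and at 6.11, 2.35, 3.60 and 8.01 at IM72h. Even the lowest library after IM, with 2.35 CPM, was above the highest naïve one. The log2 differences from naïve were 4.56 (SE 0.51, edgeR adjusted p = 0.000103), 6.17 (SE 0.87, adjusted p = 0.000723) and 3.29 (SE 0.56, adjusted p = 0.000517). From IM24h to IM72h it fell by 2.89 on the log2 scale (SE 0.61, edgeR adjusted p = 0.00356).

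*Il1rn*, the antagonist gene on chr2:24336853-24351494 (plus strand), rose beside *Il1b*. It was at 0.601, 0 and 0.840 CPM in naïve mice, 10.1, 12.4 and 15.2 at IM3h, 22.1, 64.8, 54.0 and 21.5 at IM24h, and then 10.1, 7.29, 5.32 and 5.59 at IM72h. The IM24h libraries lay above all others. The log2 differences from naïve were 4.56 (SE 0.49, edgeR adjusted p = 7.68e-05), 6.16 (SE 0.66, adjusted p = 0.000219) and 3.57 (SE 0.51, adjusted p = 0.000139). The step from IM3h to IM24h was 1.69 (SE 0.41, edgeR adjusted p = 0.0123), lost without IM3h library 1 (adjusted p = 0.0562) or 2 (0.0528), and from IM24h to IM72h *Il1rn* fell by 2.61 (SE 0.39, adjusted p = 0.000503).

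The count of *Il1b* per count of *Il1rn* in the same library, a ratio free of library scaling, showed how close the pair stayed. It was 0.429 and 0.800 in the 2 naïve libraries that had *Il1rn* counts, 0.595 to 1.13 at IM3h, 0.404 to 1.44 at IM24h and 0.323 to 1.43 at IM72h, so that the ranges overlapped at all times. Over the 14 total *ME* libraries the log2 levels of *Il1b* and *Il1rn* had a Pearson r of 0.921, a description across libraries that share depth and group.

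*Il1a*, the gene of the cell-associated ligand, was in no naïve total *ME* library. It had 3 counts in all at IM3h, was at 0.471, 0, 1.72 and 0.679 CPM at IM24h and had 2 counts at IM72h. Against the floor of 3 counts over the naïve group the IM24h mean was at least 5.14-fold higher, and 2.74-fold without the highest library. *Il1a* passed the filter in no comparison and was not tested.

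*Il33*, on chr19:29925114-29960718 (plus strand), was raised at IM24h and IM72h but not at IM3h, where *Il1b* already was. The labelled line also changes between IM3h and IM24h, so that line and time cannot be told apart in this delay. It was at 2.41, 1.45 and 3.48 CPM in naïve mice and 3.83, 2.31 and 1.92 at IM3h, and then at 12.2, 8.11, 15.3 and 20.8 at IM24h, and then 4.64, 6.35, 6.50 and 8.89 at IM72h. The first 2 groups overlapped, and both later groups lay above them. At IM3h the log2 difference from naïve was 0.19 (SE 0.46, edgeR adjusted p = 0.787), at IM24h 2.47 (SE 0.43, adjusted p = 0.00222) and at IM72h 1.28 (SE 0.32, adjusted p = 0.00585). The rise at IM72h was lost when libraries were scaled by *Actb*, *Hsp90ab1* and *Rplp1* (log2 0.70, edgeR adjusted p = 0.147). From IM3h to IM24h *Il33* rose by 2.38 on the log2 scale (SE 0.43, adjusted p = 0.00285) and from IM24h to IM72h it fell by 1.18 (SE 0.31, adjusted p = 0.0115).

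The 2 genes of the signalling IL-1 receptor rose early, and at IM72h neither was called against naïve mice with TMM scaling and all libraries. *Il1r1*, on chr1:40225080-40317257 (plus strand), was at 12.1, 15.6 and 13.1 CPM in naïve mice, 68.3, 83.0 and 57.7 at IM3h, 63.8, 61.2, 80.8 and 38.3 at IM24h, and then 15.1, 13.8, 11.8 and 25.0 at IM72h. Its lowest library at IM3h or IM24h, with 38.3 CPM, was above every naïve and IM72h library. The log2 difference from naïve was 2.43 at IM3h (SE 0.18, edgeR adjusted p = 6.44e-06), 2.15 at IM24h (SE 0.25, adjusted p = 0.000308) and 0.18 at IM72h (SE 0.25, adjusted p = 0.556), and from IM24h to IM72h *Il1r1* fell by 1.98 (SE 0.28, adjusted p = 0.000327). With library totals as the scale the IM72h difference passed at 0.79 (edgeR adjusted p = 0.0143), and with the 3 reference genes it was -0.39.

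*Il1rap* was at 3.97, 4.98 and 5.16 CPM in naïve total *ME* RNA, 17.0, 20.5 and 17.1 at IM3h, 11.8, 13.8, 10.1 and 6.90 at IM24h, and then 2.67, 2.82, 2.27 and 4.78 at IM72h. Each group from IM3h on lay below the one before it without overlap. The log2 difference from naïve was 2.02 at IM3h (SE 0.22, edgeR adjusted p = 7.66e-05), 1.16 at IM24h (SE 0.33, adjusted p = 0.0241) and -0.67 at IM72h (SE 0.31, adjusted p = 0.0843). At IM72h *Il1rap* was called as lower than naïve with the 3 reference genes as the scale (log2 -1.25, edgeR adjusted p = 0.0111), where the median gene stood at -0.58, and without IM72h library 4 (log2 -0.96, adjusted p = 0.0148). The IM24h call was lost without any 1 of the 3 naïve libraries (adjusted p of 0.0687 to 0.116 by edgeR), without IM24h library 1 (0.0501) and with the 3 reference genes as the scale (log2 0.70, adjusted p = 0.174). From IM3h to IM24h the log2 difference was -0.77 (SE 0.26, edgeR adjusted p = 0.0507), with 0.0345 by DESeq2 and 0.0264 without IM24h library 2. That adjusted p was 0.172 by edgeR without IM3h library 2. With library totals the log2 difference was 0.027 (edgeR adjusted p = 0.944). From IM24h to IM72h *Il1rap* fell by 1.84 (SE 0.33, edgeR adjusted p = 0.00136).

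*Il1r2*, on chr1:40074079-40125231 (plus strand), rose from 0.241, 0.208 and 0.120 CPM in naïve mice, which are 2, 1 and 1 counts, to 5.07, 4.33 and 2.56 at IM3h, 6.59, 7.61, 7.61 and 3.28 at IM24h, and then 7.48, 6.74, 5.71 and 4.04 at IM72h. The 3 groups after IM overlapped with each other and not with naïve. The log2 differences from naïve were 4.37 (SE 0.59, edgeR adjusted p = 0.000376), 4.95 (SE 0.64, adjusted p = 0.000459) and 4.82 (SE 0.47, adjusted p = 1.14e-05), and between IM24h and IM72h it was -0.16 (SE 0.33, adjusted p = 0.738). Of its counts in total *ME* RNA 54.1% were assigned to the transcript annotated for nonsense-mediated decay and the rest to the 410-codon transcript with nearly the same 3′ end. At IM72h the gene was thus above all naïve libraries, while *Il1r1* overlapped them.

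Counts of *Il1r2* per count of *Il1r1* in the same library, with no test, were 0.00917 to 0.0198 in naïve mice, 0.0443 to 0.0741 at IM3h, 0.0858 to 0.124 at IM24h and 0.161 to 0.497 at IM72h. The 4 ranges did not overlap. At IM72h library 4 had the ratio 0.161 and the other 3 lay from 0.483 to 0.497, and library 4 was also the IM72h library with the highest *Il1r1* and *Il1rap*. Counts of *Il1rap* per count of *Il1r1* went the other way, from 0.320 to 0.394 in naïve mice to 0.247 to 0.296 at IM3h, 0.125 to 0.226 at IM24h and 0.177 to 0.205 at IM72h.

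**Figure D3:**
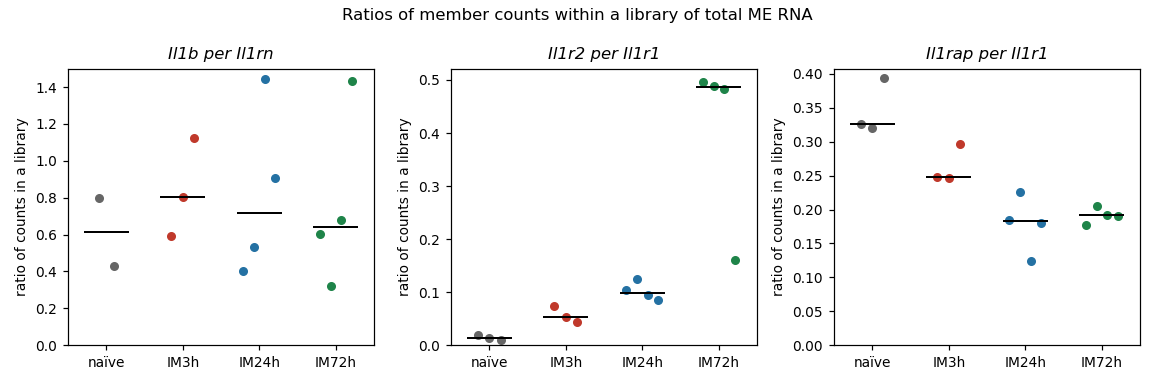
Ratios of the counts of 2 genes in the same library of total *ME* RNA, with 1 point a library and bars at group medians, on linear axes from 0. *Il1b* per *Il1rn* overlaps at all times, *Il1r2* per *Il1r1* reaches 0.483 to 0.497 in 3 of 4 IM72h libraries, and *Il1rap* per *Il1r1* is highest in naïve mice.

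*Il1rl1*, the IL-33 receptor gene on chr1:40429570-40465415 (plus strand), was low until IM24h and rose at IM72h. It was at 1.92, 1.04 and 0.720 CPM in naïve mice, 1.51, 0.722 and 0.479 at IM3h, 0.753, 0.701, 1.27 and 0.113 at IM24h, but 3.96, 4.08, 3.68 and 3.16 at IM72h. All 4 IM72h libraries lay above every other library. The log2 difference was 1.47 against naïve (SE 0.37, edgeR adjusted p = 0.00533) and 2.26 against IM24h (SE 0.56, adjusted p = 0.00814), while the gene did not pass the filter at IM3h and IM24h against naïve. It passed in both of these tests through its IM72h libraries alone, and without the filter their edgeR adjusted p were 0.00368 and 0.0103. The difference from naïve was lost with the 3 reference genes as the scale (log2 0.85, edgeR adjusted p = 0.0782) and with a spread shared by all *ME* groups (log2 1.51, adjusted p = 0.0584). All *Il1rl1* counts of IM3h and IM72h were assigned to 2 transcripts of the 567-codon membrane form, and those of *RiboTag* to 1 of them, while 1.65 estimated counts in naïve mice and 8.51 at IM24h went to a 65-codon transcript.

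Between neighbouring times in total *ME* RNA, 2 of 6 members changed from IM3h to IM24h, *Il1rn* and *Il33*, where 27.6% of all genes did, 14.2% upwards. *Il1b* was short of the threshold there (log2 1.68, SE 0.64, edgeR adjusted p = 0.0754) and passed it with DESeq2, with library totals as the scale, with a shared spread, without IM24h library 1 (0.0251 by edgeR) and without IM24h library 4 (0.0441 by edgeR). In 4 of 7 alternative settings *Il1b* stayed short of it, and without IM3h library 1 its edgeR adjusted p was 0.225. From IM24h to IM72h 6 of 7 members changed, where 38.5% of all genes did, 18.6% up and 19.9% down: *Il1b*, *Il1rn*, *Il1r1*, *Il1rap* and *Il33* down and *Il1rl1* up. *Il33* was the called member whose groups overlapped.

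**Figure D4:**
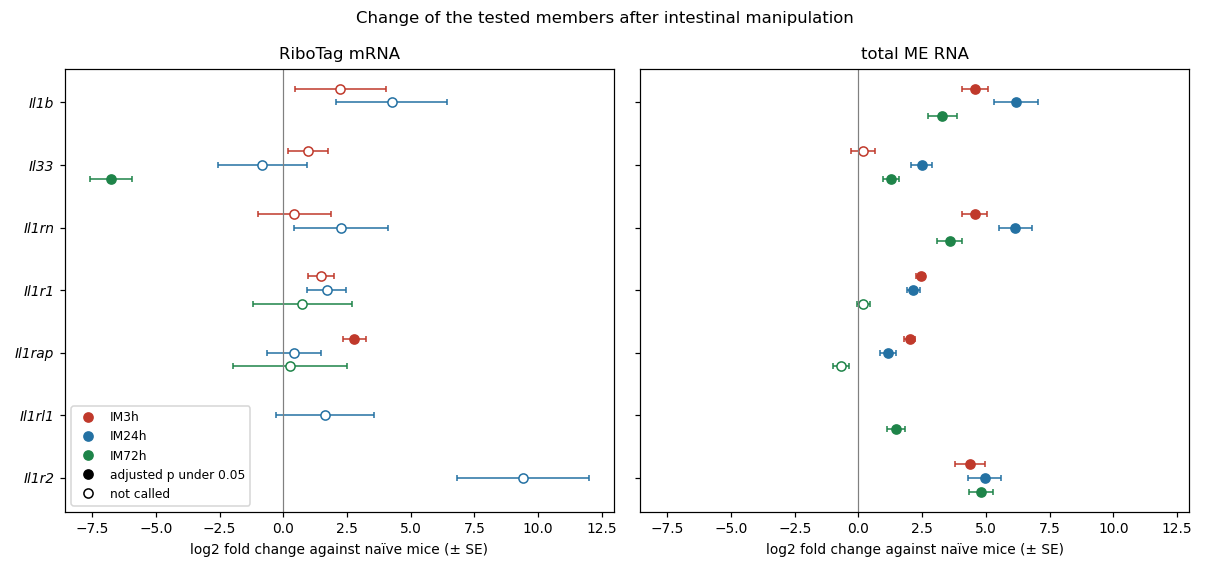
Log2 fold change against naïve mice (horizontal axis, ± SE) of the members that passed the low-count filter, in *RiboTag* mRNA (left) and total *ME* RNA (right), in red for IM3h, blue for IM24h and green for IM72h. Filled points have an edgeR adjusted p under 0.05, as 16 points in total *ME* RNA and 2 in *RiboTag*, *Il1rap* at IM3h and *Il33* at IM72h, the latter tested through its naïve libraries alone, and the *RiboTag* errors are wider.

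Marker lists of infiltrating cells changed in total *ME* RNA, each with its own time course. The summed level of neutrophil genes, of which 6 of 7 are listed, was 0.840 to 1.04 CPM in naïve mice, 24.1 to 33.1 at IM3h, 45.6 to 214 at IM24h and 20.9 to 59.1 at IM72h. Its 2 highest libraries, IM24h libraries 3 and 2 with 214 and 147 CPM, were also the 2 highest for *Il1b* and *Il1rn*. Macrophage and monocyte genes, with 8 of 8 listed, summed to 203 to 231 CPM in naïve mice, 172 to 194 at IM3h, 554 to 1065 at IM24h and 1047 to 1323 at IM72h, and were lower at IM3h than in naïve mice when *Il1b* was already raised. T cell and innate lymphoid genes were at 25.6 to 28.2 CPM in naïve mice and lower at IM3h (17.9 to 21.4) and IM24h (12.1 to 20.5). They were at 63.0 to 78.0 CPM at IM72h, where *Il1rl1* was highest. The part of these cells in the results was not tested.

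The lists of resident cells differed between groups too. Mesothelial genes, whose cells line the serosa that is touched in IM, summed to 125 to 152 CPM in naïve mice, 14.9 to 60.0 at IM3h, 7.41 to 99.6 at IM24h and 41.4 to 102 at IM72h. Fibroblast genes summed to 1933 to 2049 CPM in naïve mice, 858 to 950 at IM3h, 1111 to 2817 at IM24h and 3398 to 4159 at IM72h. Smooth muscle genes summed to 19335 to 20153, 14371 to 16783, 3023 to 9216 and 10941 to 17908 CPM in the 4 groups in order of time. Endothelial genes were at 30.3 to 35.0, 39.2 to 48.8, 52.9 to 76.3 and 76.0 to 90.5 CPM, and mast cell genes never passed 3.84 CPM. These sums are descriptions over whole marker lists.

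**Figure D5:**
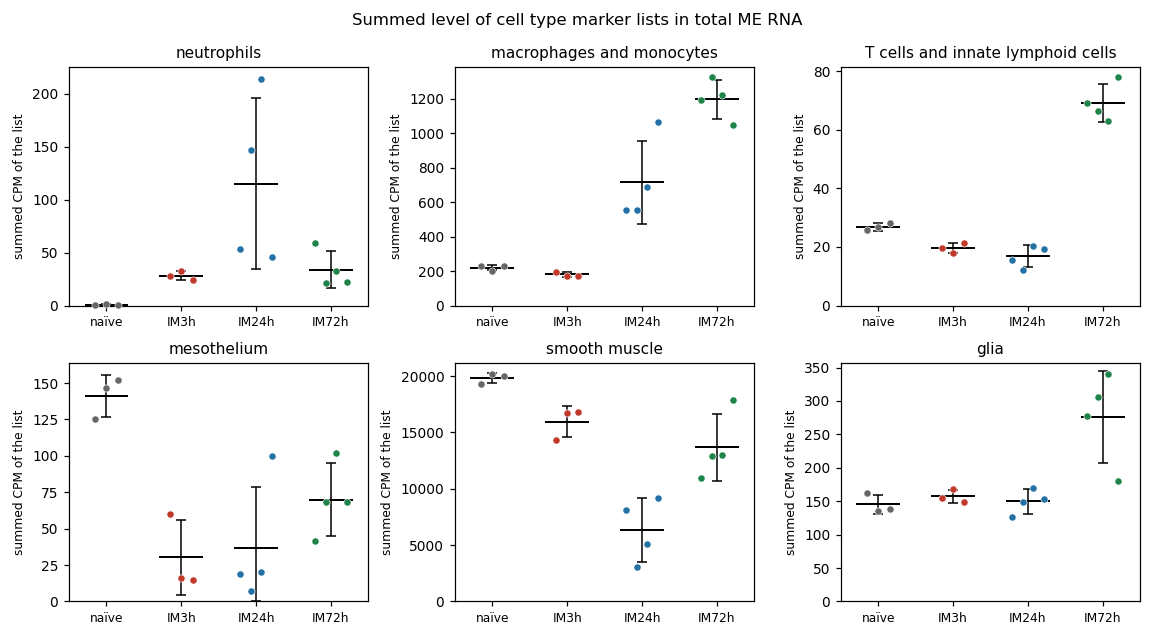
Summed CPM of 6 marker lists in each library of total *ME* RNA (points, linear axes from 0), naïve and IM3h (n = 3 each) and IM24h and IM72h (n = 4 each), with lines and bars for the mean ± SD, cut at 0. Neutrophil genes go from at most 1.04 CPM in naïve mice to 45.6 to 214 CPM at IM24h, and macrophage and monocyte genes are highest at IM72h.

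The same lists had counts in *RiboTag*, apart from mast cell genes, which are not listed there. Smooth muscle genes summed to 4302 to 6497 CPM in naïve mice, 1830 to 4718 at IM3h, 1244 to 3757 at IM24h and 1812 to 8032 at IM72h, and fibroblast genes to 650 to 756, 218 to 307, 172 to 777 and 321 to 1110 CPM. Neutrophil genes summed to 1.26 to 3.18 CPM in naïve mice, with *S100a8*, *Retnlg* and *Mmp8* at 0, to 3.58 to 10.8 at IM3h, 7.13 to 48.2 at IM24h and 10.3 to 70.0 at IM72h. At IM24h the 3 libraries with 30.1 to 48.2 CPM of neutrophil genes were the 3 with *Il1b*, and library 1 with 7.13 CPM had none. Macrophage and monocyte genes were at 95.8 to 195 CPM in naïve mice and 66.1 to 130 at IM3h. They summed to 190 to 323 CPM at IM24h, and then to 224 to 538 at IM72h. The part of these lists in the *RiboTag* levels was not tested.

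Whether a member changed differently in glial mRNA and in the whole tissue was tested as an interaction of fraction and treatment. At IM3h the fractions differ in labelled Cre line, and at IM24h and IM72h the total *ME* libraries also change line against naïve ones. In these tests line and fraction cannot be told apart. It passed for 0 of 7 members at IM3h and at IM24h, where 1.66% and 0.537% of all genes passed in edgeR, with smallest adjusted p of 0.221 and 0.325, and DESeq2 called 0 of 7 at both times. An unadjusted p under 0.05 was reached by 1 member at each time, *Il1rn*, with a log2 difference (*RiboTag* minus total) of -4.10 (SE 1.56) and -3.93 (SE 1.71). At IM72h 1 of 6 passed, where 23.3% of all genes did, 21.1% as lower, and the median gene stood at -0.98: *Il33*, raised in total *ME* RNA and at 0 in *RiboTag*, with an edgeR adjusted p of 0.000883. *Il1rn* at IM72h had a difference of -5.34 (SE 1.96, adjusted p = 0.0674). This difference passed with DESeq2 (0.0310), library totals (0.0145, where the median gene stood at -3.06) and reference gene scaling (0.0344, with the median gene at -1.80). It also passed without naïve *RiboTag* library 2 (0.0262 by edgeR) or IM72h *RiboTag* library 1 (0.0272). In 3 of 6 alternative settings it stayed short of the threshold. Naïve *RiboTag* library 1 held 37 of the 43 naïve *RiboTag* counts of *Il1rn*. Without that library the edgeR adjusted p rose to 0.31. The same omission gave 0.640 for the IM3h interaction and 0.794 for the IM24h one. With 1 library left out the IM72h difference ranged from -6.99 to -3.12.

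In naïve mice *RiboTag* was set against total *ME* RNA for the 3 members that could be tested, across different Cre lines. The log2 difference was 0.88 for *Il1rap* (SE 0.44, edgeR adjusted p = 0.174), 0.58 for *Il33* (SE 0.65, adjusted p = 0.548) and -0.17 for *Il1r1* (SE 0.44, adjusted p = 0.804), and 0 of 3 passed where 26.1% of all genes did. At an unadjusted p under 0.05 and by DESeq2 it was also 0 of 3. With library totals as the scale *Il1rap* was higher in *RiboTag* (log2 1.62, edgeR adjusted p = 0.0217), where the median gene moved from -0.01 to 0.73 and 38.2% of all genes were called.

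The promoters of the members were read for short motifs, since the IL-1 system is known to be driven by NF-κB and AP-1. The tables of RefSeq (GRCm38.p6) hold 13 start sites for the 8 genes. The 250 bases before the start are printed for *Il1b* and *Il1rn*, which rose together, and for *Il1r1* and *Il1rap*, the receptor pair, with motif matches in capitals. They lie at chr2:129371140-129371389 on the minus strand, chr2:24336610-24336859, chr1:40266336-40266585 and chr16:26581455-26581704 on the plus strand.
Il1b: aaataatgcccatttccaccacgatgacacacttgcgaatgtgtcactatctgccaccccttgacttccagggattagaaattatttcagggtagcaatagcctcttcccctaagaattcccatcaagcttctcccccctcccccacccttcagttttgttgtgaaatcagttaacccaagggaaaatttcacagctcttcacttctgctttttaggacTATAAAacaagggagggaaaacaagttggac
Il1rn: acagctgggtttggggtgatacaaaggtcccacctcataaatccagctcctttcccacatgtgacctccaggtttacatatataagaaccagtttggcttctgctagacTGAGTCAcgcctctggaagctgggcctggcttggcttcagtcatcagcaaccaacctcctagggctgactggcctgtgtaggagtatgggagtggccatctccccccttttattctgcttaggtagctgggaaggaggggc
Il1r1: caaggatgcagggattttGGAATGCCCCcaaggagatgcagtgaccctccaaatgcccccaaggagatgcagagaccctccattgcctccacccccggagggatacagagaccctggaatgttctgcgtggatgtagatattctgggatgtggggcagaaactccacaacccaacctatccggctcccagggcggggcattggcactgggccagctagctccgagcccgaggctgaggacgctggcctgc
Il1rap: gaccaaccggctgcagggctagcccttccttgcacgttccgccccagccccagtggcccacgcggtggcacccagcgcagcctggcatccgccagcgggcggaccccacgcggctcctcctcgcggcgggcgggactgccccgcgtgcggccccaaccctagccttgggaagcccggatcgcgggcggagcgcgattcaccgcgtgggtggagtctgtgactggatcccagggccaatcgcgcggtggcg
The *Il1b* window holds TATAAA at -31 to -26 from the start, a match found in 13.6% of 32851 RefSeq windows of 300 bases on either strand. It holds no NF-κB or AP-1 match. *Il1rn* holds TGAGTCA at -141 to -135, a match to the AP-1 letters TGANTCA that 7.81% of windows hold. This window precedes Il1rn-204, with 45.4% of the *Il1rn* counts in total *ME* RNA, and the windows of the other 2 *Il1rn* starts, near that of Il1rn-201 with 53.0%, hold no such match. The *Il1r1* window holds GGAATGCCCC at -232 to -223, a match to the NF-κB consensus on the minus strand, which 4.51% of windows hold, and precedes the start of the transcript with 98.5% of the *Il1r1* counts in total *ME* RNA. *Il1rap* has no match to these motifs in this window, and the CRE letters TGACGTCA, in 1.79% of windows, were in none of the 13. Among genes not printed, *Il1a* holds an AP-1 match at -12 to -6 and TATAAA at -32 to -27, and both *Il33* windows hold TATAAA. The windows of *Il1r2* and *Il1rl1* hold no match to these motifs. Starts were not measured in these 3′ libraries.

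For each member the 3 genes with the most similar pattern over the 14 total *ME* libraries were taken from 17923 genes by the Pearson r of log2 CPM, as a description. *Il1b* was followed by *Riok3* (0.956), *S100a8* (0.956), a neutrophil protein gene, and *Dph2* (0.954). *Il1rn* stood with *Rap1b* (0.977), *Steap1* (0.973) and *Slc7a11* (0.967), the cystine transporter gene. *Il1r1* stood with *Eif1a* (0.962), *Lmcd1* (0.961) and *Skil* (0.961), and *Il1rap* with *Txnrd1* (0.976), *Eif5* (0.972) and *Mphosph10* (0.967). *Il1r1* and *Il1rap* had an r of 0.925 with each other. *Il1r2* was closest to *Lamp2* (0.978), *Rhob* (0.974) and *Plaur* (0.972), the urokinase receptor gene. *Il33* was closest to *Anxa3* (0.967), *Ctss* (0.953) and *Mpeg1* (0.949), of which the last 2 are genes of macrophages and other myeloid cells. *Il1rl1* was closest to *Mpv17l2* (0.952), *Lemd2* (0.939) and *Epn1* (0.928).

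The signalling genes downstream of the receptors were read as a list of 17. In *RiboTag* at IM3h 5 rose and 1 fell, with a median log2 change of 0.66 against -0.04 for all genes. *Map3k8*, a kinase that activates ERK, rose by 4.36 (SE 1.10, edgeR adjusted p = 0.0219), *Nfkb1*, an NF-κB subunit gene, by 1.69 (SE 0.33, adjusted p = 0.00646) and *Myd88*, the adaptor gene, by 1.23 (SE 0.36, adjusted p = 0.0405), while *Tab1*, a partner of the kinase TAK1, fell by 1.996 (SE 0.59, adjusted p = 0.0434). These are 6 of 17 tested, where 13.3% of all genes were called. *Map3k8* passed the filter through its IM3h libraries alone, and its edgeR adjusted p without the filter was 0.00270. Without the filter *Myd88* (0.0505 by edgeR) and *Tab1* (0.0540 by edgeR) were not called. Whole tissue had 9 of 17 raised and 1 lowered at IM3h, where 32.7% of all genes were called, 8 raised and 1 lowered at IM24h, where it was 29.0%, and 8 raised and 2 lowered at IM72h, where it was 57.5%. The 10 of 17 at IM72h are near that share. *Irak3*, the gene of an inhibitory IRAK, rose at all 3 times there, by 2.96, 2.90 and 1.55 on the log2 scale. It was the called gene of the list in whole tissue that passed the filter through the later group alone, and it was called at all 3 times without the filter too (edgeR adjusted p of at most 0.00140). In *RiboTag* at IM24h 0 of 17 were called by edgeR or DESeq2, with 1 at an unadjusted p under 0.05, where edgeR called 0.497% of all genes. At IM72h 2 of 16 were called as lower, where 15.1% of all genes were. Both, *Traf6* and *Tab1*, passed the filter through their naïve libraries alone, and without it neither was called by edgeR.

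Genes induced by NF-κB and IL-1, a list of 12 with chemokines, *Il6* and feedback inhibitors, were the next list. In *RiboTag* at IM3h 6 of 11 tested rose by edgeR, where 8.86% of all genes did, and 8 by DESeq2, with a median log2 change of 4.01, and none fell. Of the 6, 4 had passed the filter through their IM3h libraries alone, and all 4 were called without it. *Ccl2*, a monocyte chemokine gene, rose by 6.68 (SE 0.82, adjusted p = 0.000372), *Cxcl2* by 5.25 (SE 1.02, adjusted p = 0.00602), *Cxcl1*, a neutrophil chemokine gene like *Cxcl2*, by 4.93 (SE 0.76, adjusted p = 0.00153), and *Nfkbia*, the gene of the NF-κB inhibitor IκBα, by 4.03 (SE 0.38, adjusted p = 7.22e-05). At IM24h *Nfkbia* was the 1 gene called of 9 (log2 2.19, SE 0.44, edgeR adjusted p = 0.0499), where 0.497% of all genes were. At IM72h 0 of 6 were called by edgeR, where 16.1% of all genes were, with 1 at an unadjusted p under 0.05 and 1 by DESeq2. Total *ME* RNA had 11 of 11 raised at the first 2 times and 7 of 10 at IM72h, with medians of 4.52, 2.83 and 1.28, where 19.3%, 15.6% and 29.3% of all genes were called as higher and the median gene stood at 0.00, 0.02 and 0.02. Of these, 6, 6 and 4 had passed the filter through the later group alone, and all of them were called without it. *Casp4*, *Ccl2*, *Cxcl1*, *Icam1*, *Il18rap*, *Il6*, *Map3k8*, *Myd88*, *Nfkbia*, *Nfkbiz*, *Ptgs2* and *Tnfaip3* are in the study's gliosis list, which joins published genes seen in these *RiboTag* libraries with genes taken for their change or detection there, so their direction at IM3h is not independent evidence.

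Genes of cytokine processing and release, 9 of 11 of them listed, were called mostly in total *ME* RNA. At IM24h 4 of 7 rose there, where 15.6% of all genes did, *Nlrp3*, the inflammasome sensor gene, by 4.20 (edgeR adjusted p = 0.00713), *Pycard*, its adaptor, by 1.97, *Casp4* by 1.58 and *Aim2* by 1.49 on the log2 scale. At IM72h 4 of 7 rose, where 29.3% of all genes did, *Nlrp3* by 1.96, *Aim2* by 1.73, *Pycard* by 1.10 and *Gsdmd*, the pore-forming gasdermin D gene, by 0.94. *Nlrp3* passed the filter at both times through the later group alone, and its edgeR adjusted p without the filter were 0.00381 and 0.00999. At IM3h *Casp4* was the only 1 of 6 called in total *ME* RNA (log2 2.13, adjusted p = 0.00314 by edgeR), where 32.7% of all genes were, and the only 1 of 5 in *RiboTag* (log2 2.07, SE 0.52, adjusted p = 0.0210 by edgeR), where 13.3% were. In *RiboTag* at IM72h *Gsdmd* was called as lower, 1 of 3 tested, with 54 to 91 counts a library in naïve mice and 0 to 1 at IM72h (edgeR adjusted p = 0.0226), where 15.1% of all genes were called as lower. It passed the filter through its naïve libraries alone and was not called without it (edgeR adjusted p = 0.149).

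Of the related cytokines and receptors of the family, 9 of 11 were listed. In total *ME* RNA 3 of 5 tested were called at IM3h and 3 of 7 at IM24h, where 32.7% and 29.0% of all genes were. *Il1rl2*, the IL-36 receptor gene, rose at all 3 times in total *ME* RNA, by 1.67, 2.03 and 2.15 on the log2 scale, with an edgeR adjusted p of 0.0492 at IM3h that was not called by DESeq2 or without the filter (0.0514 by edgeR). *Il18*, the cytokine gene, and *Il18r1*, its receptor gene, changed by -1.38 (edgeR adjusted p = 0.0277) and -1.57 (adjusted p = 0.0234) at IM3h. Both of these passed the filter through their naïve libraries alone, and their edgeR adjusted p without it were 0.0277 and 0.0194. *Sigirr*, an inhibitory receptor gene, and *Il18bp*, the gene of a protein that binds IL-18, rose at IM72h by 1.33 and 1.07, and in all 4 of 6 were called there, where 57.5% of all genes were. *Il18rap*, the accessory chain of the IL-18 receptor, rose at IM24h by 3.41 and at IM72h by 3.01, and the IL-36γ gene, listed under its older symbol *Il1f9*, rose from 1 count in all naïve libraries to 8 to 93 counts a library at IM24h (edgeR adjusted p = 0.00577). Of the calls of this list in total *ME* RNA at IM24h and IM72h, 3 of 3 and 3 of 4, all but *Il18bp*, were of genes that passed the filter through the later group alone, and all of them were called without the filter too (edgeR adjusted p of at most 0.0372 and 0.0159). *Il1rl2* had passed through the later group alone at IM3h as well. In *RiboTag* at IM3h *Il18rap* was the 1 gene called of 6 (edgeR adjusted p = 0.0288), where 13.3% of all genes were called. It had no naïve count and 8 to 87 counts a library, a level at least 27.4-fold higher than the floor of 3 counts over the naïve group, or 13.9-fold without the highest library. *Il18rap* passed the filter through its IM3h libraries alone, and its edgeR adjusted p without the filter was 0.0202. In *RiboTag* at IM72h 2 of 3 were called as lower, where 15.1% of all genes were, *Il18* (edgeR adjusted p = 0.00993) with 16 to 56 counts a library in naïve mice and *Il18bp* (adjusted p = 0.0210) with 56 to 101, both at 0 in all 4 IM72h libraries and tested through the naïve libraries alone. Neither was called without the filter (edgeR adjusted p = 0.148 for both).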

How the data were processed

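The authors' 3′ end libraries were aligned to mm10 with STAR, and Ensembl transcripts were then quantified within Partek. The submitters' processing notes also name cutadapt. The deposited tables hold estimated counts, made by the authors without scaling for library size, and list features with a total of at least 10. Group entries in the tables gave each library's group, and library numbers follow name order. Of 4 naïve *RiboTag* samples in the labels, 3 libraries are in the tables, and each *RiboTag* comparison rests on these 3. The study gives the n of these data as animals at each time, while the labels do not tie single libraries to animals, so p-values measure the spread between libraries. Tables of the authors' own comparisons, which hold group means, fold changes and p-values, were not used.

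Transcript counts were summed by symbol, rounded and tested two-sided with the quasi-likelihood test of edgeR 4.0.16 (R 4.3.3, limma 3.58.1) after TMM scaling and filterByExpr, with Benjamini-Hochberg adjustment over all genes tested and calls at an adjusted p under 0.05, in 14 comparisons. Interactions used genes joined by symbol. A floor is the CPM of 3 counts over a group and covers counting error only. Members, lists and motifs were chosen with earlier results of these data known. All 8 members are described in both fractions, but not each of them in every comparison. From a list, at most the 4 called genes with the largest change are named with values. Gene positions and transcripts are from GENCODE M21 (mm10), promoters from RefSeq. The scripts were tested on simulated data. Of genes changed there by 3 on the log2 scale, 83%, 30% and 0% were found in *RiboTag* at IM3h, IM24h and IM72h against naïve. For the interactions it was 80%, 29% and 0%. A count of 0 at IM24h or IM72h in these comparisons therefore does not show that nothing changed. Alternatives were DESeq2 1.42.0, other scalings, no low-count filter, *AY036118* left out, a shared spread, another call rule and leaving out each library. Summaries used Python 3.11.15 and pandas 2.3.3.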

Additional observations from a re-analysis of the deposited data

Results flagged for a closer look

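In 36 groups of 4 libraries the distance of the highest or lowest library from the others was tested, which chance passes in about 1 in 20 groups, and 6 stood apart. In *RiboTag* these were *Il1a* in IM24h library 4 at 0.952 CPM, *Il1b* in IM72h library 2 at 24.7 CPM, *Il1r2* in IM24h library 3 at 46.1 CPM, *Il1rap* in IM72h library 3 at 28.6 CPM and *Il1rl1* in IM72h library 2 at 25.6 CPM. In total *ME* RNA it was *Il1a* in IM72h library 4 at 0.135 CPM, from 2 counts. For *Il1a*, *Il1b*, *Il1rap* and *Il1rl1*, 5 of the 6 groups, the other 3 libraries had no count, which fixes this distance whatever the value, so that the chance rate does not hold for them.

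The change of *Il33* at IM72h differed between fractions, with a fitted log2 difference of -9.08 (SE 1.34, edgeR adjusted p = 0.000883) that depends on the prior count, since the gene was at 0 in all 4 IM72h *RiboTag* libraries. In that comparison 21.1% of all genes were called as lower, the median gene stood at -0.98, and the total *ME* libraries also changed line.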

How the results depend on the processing

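Of 722 values of single members under other settings, 661 kept their direction and their side of the threshold, 26 moved past it, 15 lost it and 20 changed direction. No paired analysis was possible because the lines of the count tables carry no replicate numbers of the labels. The number of members called in *RiboTag* at IM3h was 1, and it was 0 with reference gene scaling or a shared spread, 2 with DESeq2, no low-count filter or an unadjusted p with a 2-fold change, and 1 to 2 with 1 library left out. At IM24h it was 0, then 1 with DESeq2 and 2 at the unadjusted p. At IM72h it was 1, *Il33*, then 0 with DESeq2, no filter, *AY036118* left out (where *Il33* was not tested) or a shared spread, and 1 to 2 with 1 library left out. From IM3h to IM24h it was 0 in *RiboTag*, then 1 with DESeq2, no filter or the unadjusted p and 0 to 1 with 1 library left out, and 2 in total *ME* RNA, then 4 with library totals, DESeq2 or a shared spread and 1 to 3 with 1 library left out. The interaction counts of 0 at IM3h and IM24h became 1 at the unadjusted p and 0 to 1 at IM24h with 1 library left out, and that of 1 at IM72h became 2 with library totals, reference genes, DESeq2 or the unadjusted p and 1 to 2 with 1 library left out. The count of 0 between naïve fractions became 1 with library totals.

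Changes of direction were all in differences that were not called with all libraries. With library totals and with reference genes they were -0.55 and -1.10 for *Il1rap* in *RiboTag* at IM24h, -0.86 and -0.72 for *Il1r1* and -2.28 and -1.24 for *Il1rap* in *RiboTag* at IM72h, and -0.10 and -0.23 for *Il33* in total *ME* RNA at IM3h. With reference genes alone they were -0.13 for *Il1rl1* in *RiboTag* at IM24h and -0.39 for *Il1r1* in total *ME* RNA at IM72h, and with library totals alone 0.027 for *Il1rap* from IM3h to IM24h in total *ME* RNA and 0.53 for *Il1r1* between fractions. With 1 library left out the range was -0.13 to 2.72 for *Il1rn* in *RiboTag* at IM3h, -1.36 (without IM72h library 2) to 1.31 for *Il1r1* and -8.13 (without IM72h library 3, which held all its IM72h counts, edgeR adjusted p = 0.0263) to 0.70 for *Il1rap* in *RiboTag* at IM72h, -0.17 to 0.47 for *Il33* in total *ME* RNA at IM3h, -0.10 to 0.32 for *Il1r1* in total *ME* RNA at IM72h and -0.83 to 0.056 for *Il1r1* between fractions. Other causes were not tested.

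These scalings moved all genes. The median log2 change in *RiboTag* at IM3h, IM24h and IM72h was -0.04, -0.11 and -0.40 with TMM, -0.24, -0.96 and -2.13 with library totals and -0.45, -1.51 and -2.07 with reference genes, and in total *ME* RNA 0.00, 0.02 and 0.02, then -0.26, 0.66 and 0.62, then -0.41, -0.35 and -0.58. The share of all genes called ran from 0.190% to 19.3% over settings in *RiboTag* at IM3h, 0% (without IM24h library 2 or 4) to 5.67% at IM24h and 0.154% to 28.8% (without IM72h library 2) at IM72h, and from 20.2% to 45.3%, 16.0% to 42.9% and 42.7% to 63.1% in total *ME* RNA. *RiboTag* at IM72h had 663808 to 1619377 counts a library without *AY036118* and a median dispersion of 1.83.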
